A study of Mus musculus with 8 samples.

Results

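The genes described here are 8 that carry out V(D)J recombination and the end joining that completes it: Rag1, Rag2, Dntt, Dclre1c, Prkdc, Lig4, Xrcc4 and Nhej1. They were chosen by symbol, as every probe whose gene name in the scanner files equals one of these symbols. That gave 13 probes for the 8 genes, and all 8 genes were among the 16151 genes tested. Expression was measured on 1-colour Agilent arrays with Cy3-labelled RNA from C10 cells, pre-B cells of the mouse HAFTL line, which was made by transforming fetal liver with Ras. All cells carried an inducible form of C/EBPα, a myeloid transcription factor that turns these cells into macrophage-like cells. There were 4 groups with 2 arrays each. The control line expressed a control shRNA and the Tet2 shRNA line an shRNA against Tet2, an enzyme that oxidises methylated cytosine. Each line was assayed uninduced, at 0 h, and after 24 h in medium with 100 nM β-estradiol and the cytokines IL-3 and M-CSF, each at 10 ng/ml. The labels compare 1 line per shRNA, so what the shRNA does and what else separates the 2 lines cannot be told apart. The arrays of a group were technical duplicates, so every p-value below measures only the spread between duplicate arrays.

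V(D)J recombination assembles antigen receptor genes in developing B and T cells. The RAG recombinase, a complex of the Rag1 and Rag2 proteins, cuts DNA beside V, D and J segments and leaves hairpin ends. Artemis (Dclre1c), activated by the DNA-dependent protein kinase (Prkdc), opens the hairpins. Terminal transferase (Dntt) adds bases without a template, and DNA ligase IV (Lig4), with its partners Xrcc4 and Nhej1 (XLF), seals the joint. Rag1, Rag2 and Dntt are restricted to early lymphocytes, while the hairpin-opening and ligation factors serve general repair in most cells.

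A level here is the log2 of a probe's processed signal over the 75th percentile of the non-control spots on the same array, so a level of 0 is that percentile itself, and levels of different genes cannot be set against each other. A gene rose or fell where limma's adjusted p (Benjamini-Hochberg over all 16151 genes) was under 0.05, and was called where the change was also at least 2-fold. The 75th percentile signal ran from 722 to 1435 units over the 8 arrays, and duplicate arrays correlated at 0.992 to 0.994 across genes. Tet2, the shRNA's target, did not pass the test as lower in the Tet2 shRNA line: the line difference was -0.11 ± 0.10 (SE) at 0 h (adjusted p = 0.533) and 0.01 ± 0.10 at 24 h (adjusted p = 0.982). The arrays labelled Tet2 shRNA are therefore named by their label throughout. All 8 pre-B markers were well above background in every group, and their summed signal, relative to the 75th percentile, was 534 to 575 in the control line at 0 h and 288 to 315 at 24 h. In the Tet2 shRNA line the pre-B sum was 503 to 579 at 0 h and 400 to 419 at 24 h. Of these 8 markers, 4 were called lower in the control line and 2 in the Tet2 shRNA line. The summed signal of 8 macrophage markers went from 6.01 to 6.43 at 0 h to 966 to 1025 at 24 h in the control line, and from 5.56 to 5.97 to 960 to 1046 in the Tet2 shRNA line. Of the 7 macrophage markers tested, 6 were called higher in each line, and Itgam was called in neither. Adgre1 had no probe that passed the filter. Of the 8 T cell markers, the other lineage that uses these enzymes, Cd3g, Cd8a and Ptcra were not well above background in any group, and 3 were well above it on both arrays of every group. The T cell sum was 2.21 to 2.49 at 0 h and 3.35 to 4.60 at 24 h in the control line, and 1.92 to 2.70 and 3.69 to 5.43 in the Tet2 shRNA line. Cd4 was called higher in both lines, by 1.33 ± 0.32 (adjusted p = 0.0135) and 1.18 ± 0.32 (adjusted p = 0.0196). The sum of 4 neutrophil markers, of which Mpo and Ltf were not well above background in any group, was 0.36 to 0.47 at 0 h and 30.0 to 34.2 at 24 h in the control line, and 0.35 to 0.37 and 47.4 to 48.3 in the Tet2 shRNA line. Nearly all of the 24 h sum was Camp, at mean levels of 4.96 and 5.56 in the 2 lines. Elane, also called higher in both lines, was at -0.27 and -0.38. The part of these shifts in the results below was not tested, and in bulk RNA fewer cells of a type and less RNA per cell cannot be told apart.

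Over 24 h of induction the lymphocyte-restricted enzymes Rag1, Rag2 and Dntt fell in both lines to between 3.1% and 4.97% of their 0 h signal, and Dclre1c rose. Prkdc fell and Xrcc4 rose by less than 2-fold, Lig4 fell in the Tet2 shRNA line, and Nhej1 did not pass the test in either line. Of the 8 genes, 4 were called in the control line, 1 higher and 3 lower, where 27.3% of all genes were called (14.2% higher and 13.1% lower). The count in the Tet2 shRNA line was also 4, 1 higher and 3 lower, against 32.2% of all genes (16.7% higher and 15.4% lower). With each array scaled to its median, 39.1% instead of 52.0% of the calls in the Tet2 shRNA line were higher. With no limit on size, 6 of the 8 passed in the control line and 7 in the Tet2 shRNA line, where 61.9% and 68.2% of all genes did. The median change of the 8 genes was -0.50 in the control line and -0.78 in the Tet2 shRNA line, beside -0.00 and 0.14 over all genes.

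**Figure D1:**
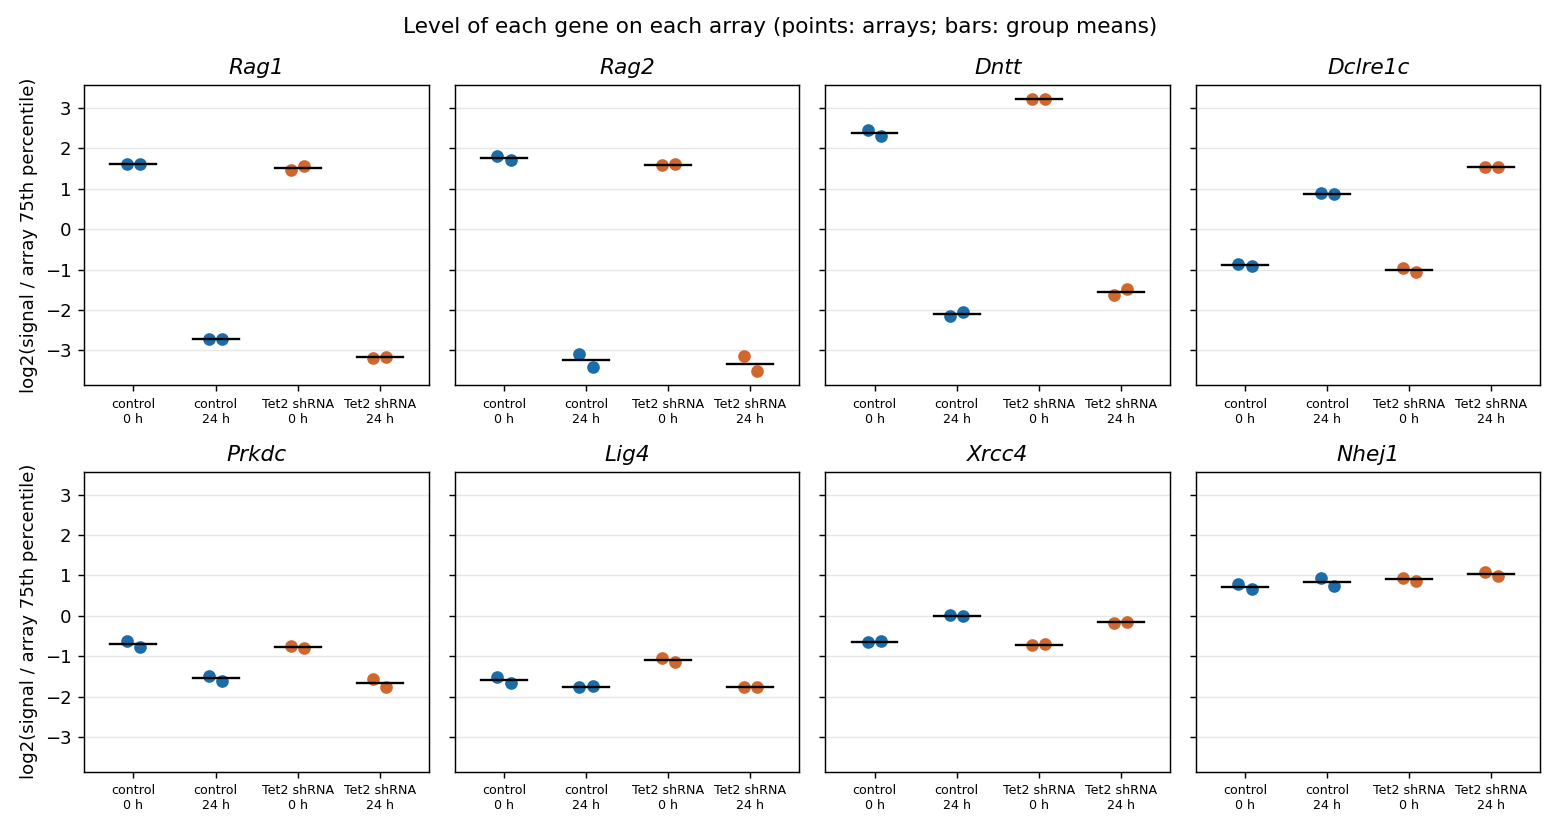
Level of each gene on each of the 8 arrays, as log2 of signal over the array's 75th percentile, by line and time; points are arrays and bars are group means of 2 arrays. Rag1, Rag2 and Dntt drop by more than 4 log2 units at 24 h in both lines, Dclre1c goes up, and the group means of the other 4 genes move by less than 1 unit.

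Rag1 encodes the catalytic subunit of the recombinase. Its level was 1.60 and 1.60 on the control arrays at 0 h and -2.72 and -2.73 at 24 h. On the Tet2 shRNA arrays it was 1.45 and 1.55 at 0 h and -3.20 and -3.16 at 24 h. All 4 arrays at 24 h lay far below all 4 arrays at 0 h. Rag1 fell by 4.33 ± 0.06 (SE) on the log2 scale in the control line, to 4.97% of its 0 h signal (adjusted p = 8.35e-07). It fell by 4.68 ± 0.06 in the Tet2 shRNA line, to 3.90% (adjusted p = 5.50e-07). These values come from probe A_51_P232411, at chr2:101478813-101478872 on the minus strand of mm9. A second Rag1 probe, A_55_P2043297 at chr2:101481051-101481110, was well above background on the 4 arrays at 0 h and on no array at 24 h. Against the lowest signal measured above background, its fall was at least 5.34-fold in the control line and at least 5.81-fold in the Tet2 shRNA line.

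Rag2 encodes the regulatory subunit, whose plant homeodomain finger reads a histone mark of active chromatin. Its probe A_66_P105784 lies at chr2:101470723-101470782 on the plus strand of mm9, and is shown because every measured Rag2 level at 24 h rests on it:
Rag2 probe: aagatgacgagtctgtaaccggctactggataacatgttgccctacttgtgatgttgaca
The Rag2 level was 1.81 and 1.71 on the control arrays at 0 h and -3.09 and -3.41 at 24 h. On the Tet2 shRNA arrays it was 1.58 and 1.62 at 0 h and -3.14 and -3.52 at 24 h. The times did not overlap in either line, and the 24 h duplicates lay farther apart than those of Rag1. Rag2 fell by 5.01 ± 0.16 in the control line, to 3.1% (adjusted p = 5.35e-06), and by 4.93 ± 0.16 in the Tet2 shRNA line, to 3.28% (adjusted p = 4.81e-06). The other Rag2 probe, A_52_P259521 at chr2:101472445-101472504, printed in 10 spots per array, was also above background on the 0 h arrays alone. Its fall was at least 3.59-fold in the control line and at least 3.78-fold in the Tet2 shRNA line.

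Dntt encodes terminal deoxynucleotidyl transferase, a template-independent polymerase of family X. Its level (probe A_51_P516085, chr19:41133936-41133995 on the plus strand of mm9) was 2.45 and 2.29 in the control line at 0 h and -2.15 and -2.05 at 24 h. With Tet2 shRNA it was 3.23 and 3.23 at 0 h and -1.63 and -1.49 at 24 h. The Tet2 shRNA arrays lay above the control arrays at both times. Dntt fell by 4.47 ± 0.09 in the control line, to 4.52% (adjusted p = 1.30e-06), and by 4.79 ± 0.09 in the Tet2 shRNA line, to 3.62% (adjusted p = 9.15e-07). The other polymerases of the family did not move like it. Polb changed by 0.20 ± 0.08 and 0.32 ± 0.08 in the control and Tet2 shRNA lines, Poll by -0.48 ± 0.08 and -0.13 ± 0.08, and Polm by -0.04 ± 0.07 and 0.17 ± 0.07. None of these 3 genes was called in either line.

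Since these 3 genes fell together and Dclre1c rose, the 250 bases before the RefSeq start of each are shown (GRCm38.p6), 5′ to 3′ on the gene's strand. Capitals mark every match, on either strand, to the motifs searched: the E-box (CANNTG) and its form CAGGTG, C/EBP (TTGCNNAA), Ikaros (TGGGAA), FOXO (GTAAACA), E2F (GGCGGGAA), the TATA box (TATAAA), Sp1 (GGGCGG), the CCAAT box (CCAAT), ETS (CCGGAA), and the EBF and NRF1 motifs.
Rag1, chr2:101649533-101649782, minus strand: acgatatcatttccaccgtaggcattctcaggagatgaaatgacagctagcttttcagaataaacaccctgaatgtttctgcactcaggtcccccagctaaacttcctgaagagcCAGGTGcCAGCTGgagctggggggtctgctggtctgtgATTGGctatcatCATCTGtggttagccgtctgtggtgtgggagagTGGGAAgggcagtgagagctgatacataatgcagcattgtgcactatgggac
Rag2, chr2:101624462-101624711, plus strand: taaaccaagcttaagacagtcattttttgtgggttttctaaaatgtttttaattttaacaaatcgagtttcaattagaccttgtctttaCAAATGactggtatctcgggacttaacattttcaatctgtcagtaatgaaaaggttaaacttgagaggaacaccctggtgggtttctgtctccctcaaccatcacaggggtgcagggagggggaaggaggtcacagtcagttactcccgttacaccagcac
Dntt, chr19:41029025-41029274, plus strand: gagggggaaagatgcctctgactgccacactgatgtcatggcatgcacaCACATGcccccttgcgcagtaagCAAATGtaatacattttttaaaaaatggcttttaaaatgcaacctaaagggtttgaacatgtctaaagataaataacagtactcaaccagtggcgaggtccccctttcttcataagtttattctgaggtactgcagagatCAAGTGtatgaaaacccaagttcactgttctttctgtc
Dclre1c, chr2:3423881-3424130, plus strand: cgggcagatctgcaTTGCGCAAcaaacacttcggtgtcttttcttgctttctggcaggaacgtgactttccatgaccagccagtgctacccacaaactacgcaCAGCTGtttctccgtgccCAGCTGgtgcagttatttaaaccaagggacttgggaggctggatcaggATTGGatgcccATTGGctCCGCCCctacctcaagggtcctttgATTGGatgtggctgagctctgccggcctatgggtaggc
Counted in windows of 300 bases, which go on for 50 bases past the start, E-boxes matched 4 times at Rag1, 2 times at Rag2, 3 times at Dntt and 2 times at Dclre1c. An E-box is common: 72.3% of 32817 mouse promoter windows of that length hold one. CAGGTG, which lies within the E-box letters, matched at Rag1 alone of the 7 genes with a window, and 20.2% of all windows hold it. The Ikaros letters matched at Rag1 and Lig4, against 25.6% of all windows. The C/EBP letters matched at 1 place, in the Dclre1c window, 236 bases before the start, as TTGCGCAA, and 10.8% of all windows hold such a match. The EBF, FOXO, E2F and TATA letters matched in none of the windows of the 7 genes, and 0.905%, 3.65%, 2.19% and 13.6% of all windows hold them. The ratio of observed to expected CpG was 0.16 at Rag1, 0.22 at Rag2 and 0.15 at Dntt. It was 0.51 at Dclre1c, 0.52 at Nhej1, 0.97 at Xrcc4, and 0.86 and 0.94 at the 2 starts of Lig4, with a median of 0.38 over all windows. The 3 genes that fell by more than 4 log2 units thus had the lowest CpG ratios of the 7 genes. Such ratios are common: 23.3%, 31.2% and 20.7% of all windows lay below those of Rag1, Rag2 and Dntt. Prkdc, which also fell, had no window. A match of letters is a description of sequence only, and no binding or methylation was measured here.

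Dclre1c, which encodes the hairpin-opening nuclease Artemis, was the only one of the 8 genes called higher. Its level was -0.87 and -0.92 in the control line at 0 h and 0.89 and 0.87 at 24 h. In the Tet2 shRNA line it was -0.96 and -1.05 at 0 h and 1.55 and 1.53 at 24 h. The 4 arrays at 24 h lay above the 4 at 0 h, and at 24 h the Tet2 shRNA arrays lay above the control arrays. Dclre1c rose by 1.78 ± 0.06 in the control line, a 3.42-fold change (adjusted p = 5.86e-06), and by 2.55 ± 0.06 in the Tet2 shRNA line, a 5.84-fold change (adjusted p = 1.69e-06).

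Dclre1c had 4 probes, which the files assign to 2 transcripts. The brightest, A_55_P2129291 at chr2:3371015-3371074, gave the values above. A_52_P462203, 60 bases at chr2:3370687-3370746 of the same transcript, rose by 1.77 ± 0.16 in the control line and 2.50 ± 0.16 in the Tet2 shRNA line. For the other transcript, A_55_P2067116 at chr2:3376817-3376876 rose by 2.02 ± 0.09 and 2.59 ± 0.09. The dimmest probe, A_55_P2067131 at chr2:3378320-3378379, was not well above background on the control arrays at 0 h, and its rise there was at least 5.31-fold. In the Tet2 shRNA line it rose by 2.41 ± 0.11. All 4 probes thus rose in both lines, where 27.4% and 32.2% of all kept probes were called.

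**Figure D2:**
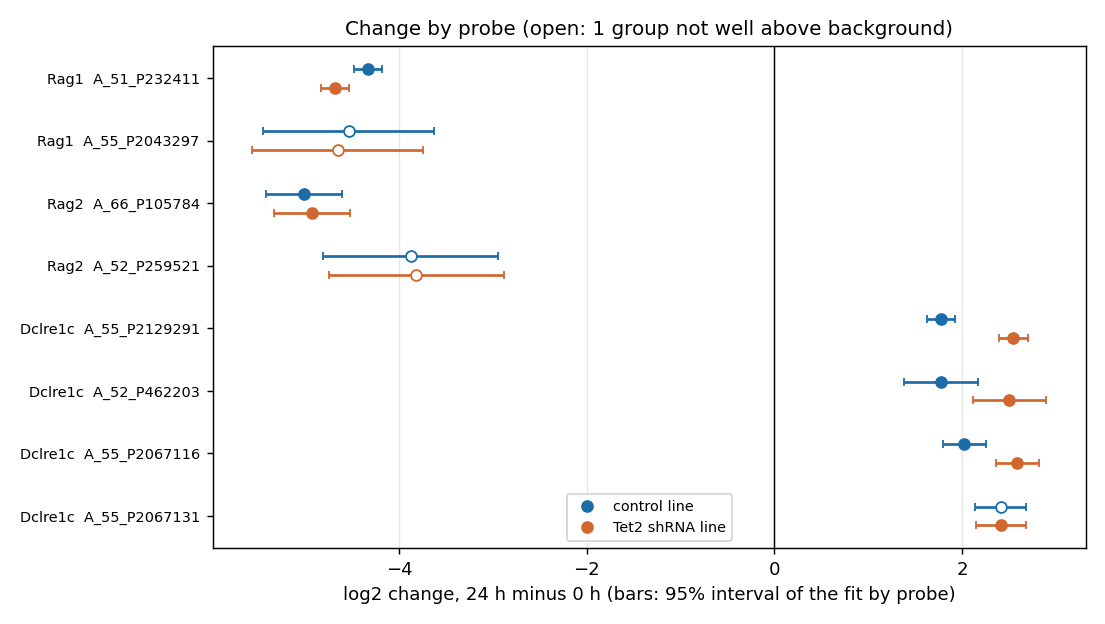
Change over 24 h for each probe of Rag1, Rag2 and Dclre1c in both lines, on the log2 scale with 95% intervals of the fit by probe. Open points mark a change in which 1 group was not well above background, so that the fitted value need not be a bound. Both probes of Rag1 and of Rag2 lie at -3.82 or lower, and the 4 probes of Dclre1c lie between 1.77 and 2.59.

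Prkdc encodes the catalytic subunit of the DNA-dependent protein kinase, which is recruited to broken ends by Ku. Its probe, A_51_P241667, was printed in 10 spots per array and spans 2606 bases of genome, chr16:15839317-15841922 on the plus strand of mm9. The level was -0.62 and -0.77 in the control line at 0 h and -1.48 and -1.61 at 24 h, and -0.74 and -0.79, then -1.55 and -1.75, in the Tet2 shRNA line. The times did not overlap, while the lines did at either time. Prkdc fell by 0.85 ± 0.10 in the control line (adjusted p = 0.000702) and by 0.89 ± 0.10 in the Tet2 shRNA line (adjusted p = 0.000513). Both falls were short of 2-fold, and with each array scaled to its median the fall in the Tet2 shRNA line was 1.14 and was called (adjusted p = 0.00268).

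The ligation genes moved little and not in the same direction. Lig4, the ligase itself (probe A_52_P569549, chr8:9970290-9970349 on the minus strand), was at -1.52 and -1.67 in the control line at 0 h and -1.76 and -1.75 at 24 h. With Tet2 shRNA its level was -1.03 and -1.15 at 0 h and -1.75 and -1.76 at 24 h. The 0 h arrays of the Tet2 shRNA line were thus the highest, and the 24 h arrays of both lines coincided. The change was -0.16 ± 0.08 in the control line, which did not pass (adjusted p = 0.130), and Lig4 fell by 0.66 ± 0.08 in the Tet2 shRNA line (adjusted p = 0.000557).

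Xrcc4, the scaffold that stabilises the ligase (probe A_55_P1981205, chr13:89988731-89988790 on the minus strand), was at -0.65 and -0.62 in the control line at 0 h and 0.02 and -0.01 at 24 h. In the Tet2 shRNA line it was at -0.73 and -0.69, then -0.17 and -0.14. Both 24 h groups lay above both 0 h groups. Xrcc4 rose by 0.64 ± 0.05 in the control line (adjusted p = 0.000171) and by 0.55 ± 0.05 in the Tet2 shRNA line (adjusted p = 0.000269). With median scaling the rises were 0.53 and 0.30 and did not pass (adjusted p = 0.0544 and 0.237).

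Nhej1 encodes XLF, which bridges ends together with Xrcc4. Its level (probe A_52_P128964, chr1:75014076-75014135 on the minus strand) was 0.79 and 0.66 in the control line at 0 h and 0.95 and 0.73 at 24 h, so the times overlapped. With Tet2 shRNA the level was 0.95 and 0.86 at 0 h and 1.10 and 0.98 at 24 h. The changes were 0.11 ± 0.10 (adjusted p = 0.381) and 0.13 ± 0.10 (adjusted p = 0.288), with 95% intervals of -0.14 to 0.36 and -0.12 to 0.38. Median scaling turned the second to -0.12.

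**Figure D3:**
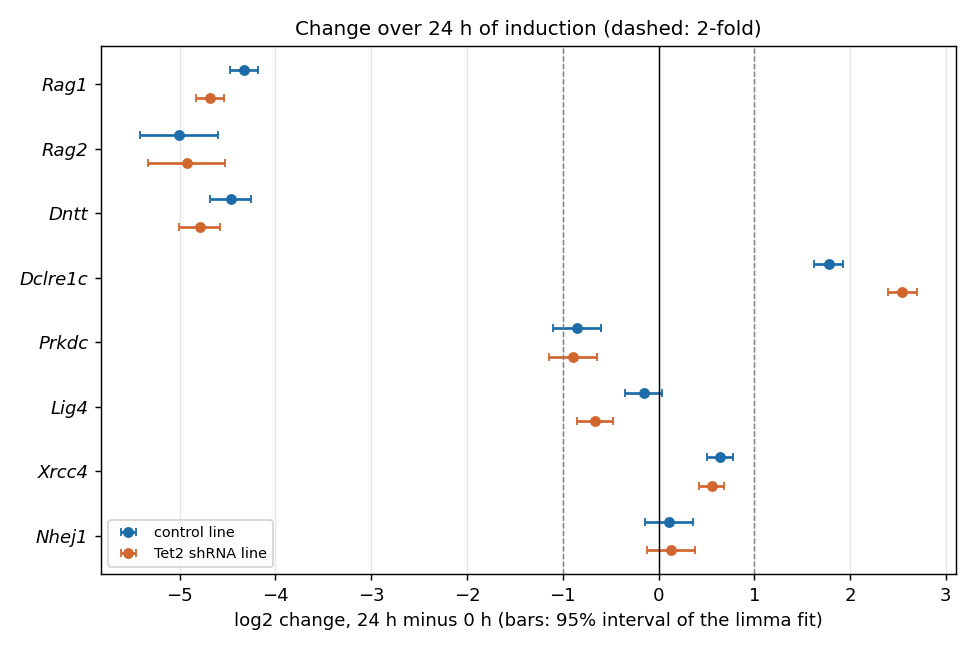
Log2 change of each gene from 0 h to 24 h in the control line and the Tet2 shRNA line, with 95% intervals of the limma fit over 8 arrays; dashed lines mark 2-fold. Rag1, Rag2 and Dntt lie between -5.01 and -4.33, Dclre1c at 1.78 and 2.55, and the other 4 genes within the dashed lines.

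Between the lines, none of the differences in these genes reached 2-fold. At 0 h, 0 of the 8 genes were called, against 1.72% of all genes, and 2 passed with no limit on size, against 13.5%. At 24 h, 0 were called, against 2.04% of all genes, and 3 passed with no limit on size, against 13.8%. The difference between the inductions was called for 0 genes, against 3.82%, and passed for 3 with no limit on size, against 16.3%. At an unadjusted limma p under 0.05 the counts were 2, 4 and 4 of 8, against 30.7%, 31.3% and 33.3% of all genes. The 8 differences that passed are described below. None of them passed with median scaling (adjusted p from 0.0746 to 0.547) or with no filter on dim probes (adjusted p from 0.0519 to 0.346). The comparisons at 0 h, at 24 h and between the inductions share arrays and are not independent of each other.

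Dntt was higher in the Tet2 shRNA line at both times. The difference was 0.86 ± 0.09 at 0 h, or 1.81-fold (adjusted p = 0.00502), and 0.54 ± 0.09 at 24 h, or 1.45-fold (adjusted p = 0.0171). The 24 h difference did not pass when any 1 of the 4 arrays at 24 h was left out (adjusted p = 0.0523 to 0.0965). The inductions differed by -0.32 ± 0.12, which did not pass (adjusted p = 0.133).

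Rag1 did not differ detectably at 0 h (-0.10 ± 0.06, adjusted p = 0.325) and was lower in the Tet2 shRNA line at 24 h, by -0.45 ± 0.06, a 1.37-fold difference (adjusted p = 0.0102). The signal was low by then, at 165 and 189 units on the control arrays and 79 and 100 on the Tet2 shRNA arrays. With the deposited value table the 24 h difference was -0.32 and did not pass (adjusted p = 0.0588). The Rag1 inductions differed by -0.35 ± 0.08 (adjusted p = 0.0453). That difference did not pass when any 1 of the 8 arrays was left out (adjusted p = 0.0624 to 0.129). The 24 h difference did not pass when any 1 of the 4 arrays at 24 h was left out (adjusted p = 0.0567 to 0.0705). Rag2, transcribed from the same locus, differed by -0.16 ± 0.16 at 0 h (adjusted p = 0.577) and -0.08 ± 0.16 at 24 h (adjusted p = 0.801). Its inductions differed by 0.08 ± 0.23 (adjusted p = 0.849), with a 95% interval of -0.49 to 0.66 that holds the Rag1 value.

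Dclre1c rose farther in the Tet2 shRNA line: the inductions differed by 0.77 ± 0.08, or 1.71-fold (adjusted p = 0.00827). The lines differed by -0.11 ± 0.06 at 0 h (adjusted p = 0.267) and 0.66 ± 0.06 at 24 h (adjusted p = 0.00404). By probe it was 0.73 ± 0.22 for A_52_P462203 (adjusted p over probes = 0.0828), 0.57 ± 0.13 for A_55_P2067116 (0.0419) and 0.00 ± 0.15 for A_55_P2067131 (0.989). The 2 probes of the brighter transcript were higher in the Tet2 shRNA line at 24 h, by 0.66 and 0.67. The probe A_55_P2067116 of the other transcript was instead lower at 0 h, by -0.50 ± 0.09 (adjusted p over probes = 0.0262), and differed by 0.06 ± 0.09 at 24 h. Whether the probes differ from each other was not tested.

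Lig4 was higher in the Tet2 shRNA line at 0 h by 0.51 ± 0.08, or 1.42-fold (adjusted p = 0.0148), and differed by -0.00 ± 0.08 at 24 h (adjusted p = 0.996). Its inductions differed by -0.51 ± 0.11 (adjusted p = 0.0339), which did not pass when any 1 of the 8 arrays was left out (adjusted p = 0.0548 to 0.106). The 0 h difference did not pass without control replicate 2 (adjusted p = 0.0661) or Tet2 shRNA replicate 1 (adjusted p = 0.0705). Prkdc, Xrcc4 and Nhej1 passed in none of the 3 comparisons. Their differences lay between -0.16 and 0.20, and the 95% intervals of the difference between the inductions were -0.39 to 0.31 for Prkdc, -0.27 to 0.10 for Xrcc4 and -0.34 to 0.37 for Nhej1.

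**Figure D4:**
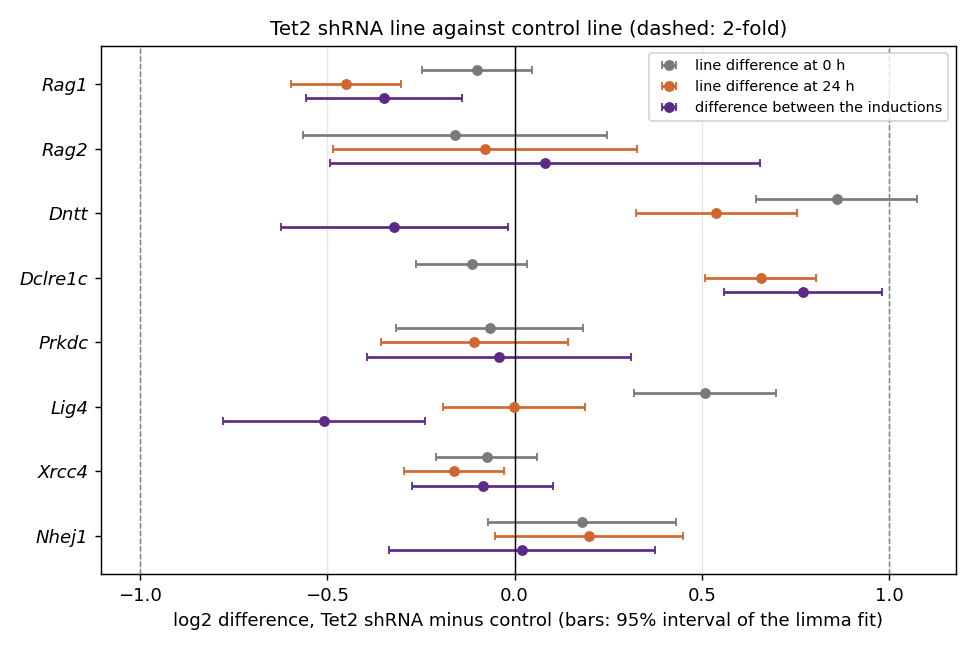
Differences between the Tet2 shRNA line and the control line at 0 h, at 24 h and between their inductions, on the log2 scale with 95% intervals of the limma fit over 8 arrays; dashed lines mark 2-fold. Dntt at 0 h lies highest at 0.86, Dclre1c stands at 0.66 and 0.77 at 24 h and for the inductions, and every point lies within the dashed lines.

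The other genes of the pathway were taken from lists by role. Over all genes, 14.2% were called higher and 13.1% lower in the control line, and 16.7% and 15.4% in the Tet2 shRNA line. These shares belong beside the counts of every list below. Among 11 further end-joining factors, 5 were called lower and 1 higher in the control line, and 5 lower and 2 higher in the Tet2 shRNA line. Xrcc6 and Xrcc5, which encode the Ku heterodimer that binds the ends first, fell by 1.71 ± 0.08 and 1.34 ± 0.10 in the control line and by 1.58 ± 0.08 and 1.20 ± 0.10 in the Tet2 shRNA line. Aplf, a scaffold that Ku binds, and Tdp1 and Tdp2, which clear adducts from ends, were the other 3 called lower in both lines. Paxx, a paralogue of Xrcc4 and XLF, rose by 0.57 ± 0.06 in the control line and by 1.05 ± 0.06 in the Tet2 shRNA line, and its inductions differed by 0.48 ± 0.09 (adjusted p = 0.0231). The list's median change was -0.48 in the control line and -0.13 in the Tet2 shRNA line, and -0.59 and -0.38 with median scaling.

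The 7 genes of alternative end joining, which joins ends without Ku, were all called lower in the control line, and 6 of the 7 in the Tet2 shRNA line. The median change was -1.45 and -1.57. Lig1, the ligase of replication that can also serve this route, fell by 4.59 ± 0.08 in the control line and fell by 4.99 ± 0.08 in the Tet2 shRNA line. Polq, its polymerase, was not well above background in the control line at 24 h, where its fall was at least 15.9-fold. Lig3 fell by 1.01 ± 0.14 and by 0.92 ± 0.14, the second short of 2-fold. Of 15 genes of break signalling and end protection, 8 were called lower in the control line and 9 in the Tet2 shRNA line, with none called higher and medians of -1.68 and -1.75.

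Among 8 cofactors of RAG and genes of its turnover, 7 were called lower in the control line and 8 in the Tet2 shRNA line, with medians of -1.66 and -2.15. Hmgb1 and Hmgb2, DNA-bending proteins that help RAG bind its signal sequences, fell by 1.84 ± 0.26 and 2.76 ± 0.09 in the control line and by 2.21 ± 0.26 and 2.99 ± 0.09 in the Tet2 shRNA line. Skp2, which targets Rag2 for destruction in the cell cycle, fell by 3.11 ± 0.11 and 3.29 ± 0.11. Ccna2, the cyclin partner of Cdk2, which marks Rag2 for that destruction, fell by 4.66 ± 0.06 and 5.23 ± 0.06. The fall was larger in the Tet2 shRNA line for 4 of the 8 genes, Ccna2, Dcaf1, Kpna1 and Kpna2, by the test of the difference. That test, with no limit on size, was passed by 16.3% of all genes in either direction. With the deposited value table only Kpna2 of these 4 genes passed.

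Of 14 transcription factors that act on the Rag locus, 7 were called lower and 2 higher in each line. Those lower in the control line included Ebf1 at -2.65 ± 0.10, Foxo1, an activator of Rag transcription, at -2.08 ± 0.07, and Tcf3, which encodes the E-box factor E2A, at -1.97 ± 0.07. Their values in the Tet2 shRNA line were -2.40 ± 0.10, -1.88 ± 0.07 and -1.90 ± 0.07. Gfi1b, a repressor of Rag transcription, was at -1.59 ± 0.07 and -1.64 ± 0.07, so members of the list with opposite roles fell. Gfi1, its paralogue, rose by 1.62 ± 0.07 and 1.81 ± 0.07. Foxo3 was the other gene called higher in both lines. Its mean level went from -1.87 to -0.55 in the control line and from -2.01 to -0.45 in the Tet2 shRNA line. Irf4 fell by 1.91 ± 0.07 in the control line and by 1.18 ± 0.07 in the Tet2 shRNA line, and this difference of 0.73 ± 0.10 passed (adjusted p = 0.0130). The list's median was -1.15 and -1.02. Ebf1 and Pax5 of this list are also pre-B markers. No gene of the lists that had passed in either induction changed sign under another scaling, and the differences between inductions given for Paxx, Ccna2, Dcaf1, Kpna1, Kpna2 and Irf4 did not pass with median scaling (adjusted p from 0.317 to 0.722) or with no filter on dim probes (adjusted p from 0.125 to 0.251). Cebpa, listed with them, had no probe that passed the filter.

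**Figure D5:**
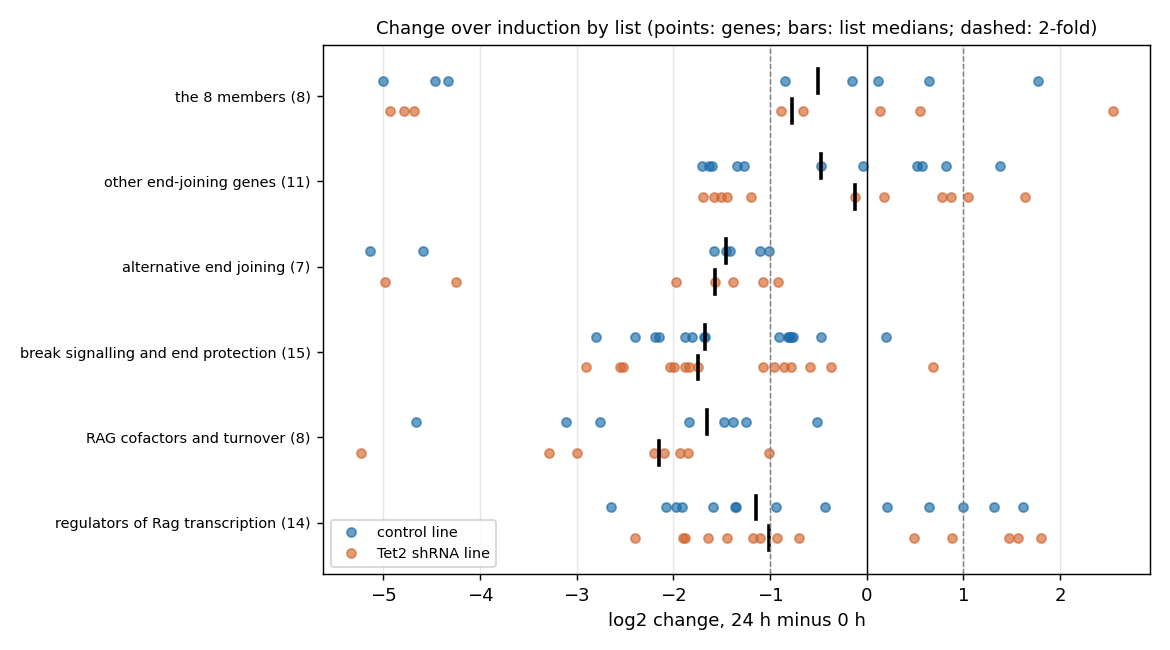
Log2 change from 0 h to 24 h for the 8 genes described here and for 5 lists of pathway genes in both lines; points are genes, short bars are medians, and dashed lines mark 2-fold. The 7 genes of alternative end joining and the 8 RAG cofactors all lie below 0, and the leftmost point of alternative end joining in the control line, Polq, was not well above background at 24 h.

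Among the tested genes, those whose pattern over the 8 arrays was most like each of the 8 were found by the root mean square difference after each gene was centred on its own mean. For Rag1 they included Tedc1 at 0.07, Pold1 at 0.08 and Brca2 at 0.11. For Rag2 they were Kif2c at 0.14, Mcm7 and Top2a at 0.15, and Pimreg and Prim1 at 0.16. The nearest gene to Dntt was Atad5 at 0.20, followed by Gins1, also at 0.20. Kif2c and Atad5 were not well above background in the control line at 24 h, so their distances rest partly on values near background. Among the 8 genes, Rag1 and Rag2 were 0.30 apart, and Dntt was 0.49 from Rag1 and 0.49 from Rag2. Dclre1c was 3.36 from Rag1 and 0.84 from Xrcc4. The genes nearest to Rag1, Rag2 and Dntt lay outside the 8, which are few among the 16151 genes tested. Each of these nearest genes was compared over only 8 arrays in 4 groups. For Dclre1c the nearest named genes were Cela1 at 0.07 and Apof at 0.09, and for Xrcc4 the nearest was Wdr37 at 0.03.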

How the data were processed

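The 8 arrays were analysed, 2 in each of 4 groups. The deposited scanner files hold intensity per spot, which Agilent Feature Extraction 10.7.3.1 background-corrected, per the file headers, with probe positions on mm9. The deposited value table holds log2 values, which matched a normexp and quantile recomputation, and was an alternative. Here each array's log2 processed signal was centred on its 75th percentile over 43020 non-control spots and spots of 1 probe were averaged. A probe was kept where some group had both of its arrays well above background (20304 of 39429), and the brightest stood for its gene. limma 3.58.1 (lmFit, eBayes) was fitted to 4 group means over 16151 genes, in R 4.3.3, with code tested on simulated data. Replicate numbers are slides, per the file headers, each holding all 4 groups, and same-numbered arrays deviated together (r from 0.298 to 0.412), so the number was tried as a block. The alternatives were other normalizations, filters, probe rules and moderation, the block, and leaving out each array.

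The 8 genes, the lists and the rule for named genes were chosen with earlier results of these data known: all 8 genes, pathway genes by list, the 5 genes most like each, and adjacent genes. Promoter sequence is from RefSeq tables (GRCm38.p6), which held 7 of the 8 genes. No exon or UTR annotation of mm9 was used here. The values of 1 gene of the end-joining list are not reported here.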

Additional observations from a re-analysis of the deposited data

Results flagged for a closer look

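The induction differed between the lines for 3 of the 8 genes by the test of the difference itself (limma, adjusted over all genes). With no limit on size, as here, 16.3% of all genes passed that test. None of the 3 differences reached 2-fold, and none passed with median scaling or with no filter on dim probes. Dclre1c rose by 0.77 ± 0.08 (SE) more in the Tet2 shRNA line on the log2 scale, higher in that line on both slides, and passed in 18 of 20 tested alternatives (adjusted p from 0.00279 to 0.462). The Lig4 difference was -0.51 ± 0.11 and passed in 8 of 20 (adjusted p from 0.0203 to 0.460). The Rag1 difference was -0.35 ± 0.08 and passed in 5 of 20 (adjusted p from 0.0269 to 0.614). Under every one of these alternatives each of the 3 kept its sign. The alternatives overlap: normexp and the deposited table gave the same values, and 8 left out 1 array each. The call with no limit on size is also counted among the 20. It repeats the adjusted p of the main fit, so its pass adds nothing to the main result. Of the other Dclre1c probes, A_55_P2067116 passed (adjusted p over probes = 0.0419) and A_52_P462203 did not (0.0828). A_55_P2067131 showed no such difference, at 0.00 ± 0.15 (0.989).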

How the results depend on the processing

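The counts of called genes were 4, 4, 0, 0 and 0 of 8 for the inductions of the control and Tet2 shRNA lines, the line differences at 0 h and 24 h and the difference between the inductions. They were the same under every alternative run, with 2 exceptions. Median scaling gave 5 in the Tet2 shRNA induction, with Prkdc added, and the call with no limit on size gave 6, 7, 2, 3 and 3. Leaving out each array in turn gave 4 to 4 for both inductions and 0 to 0 for the others. With replicate number as a block no call changed: Rag1 kept -4.33 ± 0.05 (adjusted p = 6.1e-06) in the control line. Of 880 comparisons of a gene's change with its main value, 822 kept their side of both thresholds, 56 became weaker, 10 of them under median scaling, and 2 stronger. None reversed.

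Median scaling moved the median change of all genes in the Tet2 shRNA line from 0.14 to -0.11, the share of its calls that were higher from 52.0% to 39.1%, and that share for the difference between the inductions from 61.8% to 48.1%. Over all genes, calls between the lines at 0 h went from 278 to 94 with normexp or the deposited table and 157 for probes above background on all 8 arrays. At 24 h they went from 329 to 163 and 147, and to 187 with no filter. Calls for the difference between the inductions went from 617 to 289, 372 and 121 under the same settings, and to 212 with median scaling. With no limit on size the counts were 9990, 11015, 2176, 2236 and 2627, against 4408, 5194, 278, 329 and 617. The scaling check of the pathway lists was chosen after seeing the data. With 2 arrays per group, the median SE of a difference between groups was 0.10 log2. Differences larger than this also did not pass, such as 0.20 ± 0.10 for Nhej1 between the lines at 24 h (adjusted p = 0.246).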

Other observations

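Several of the 8 genes lie beside genes that changed by different amounts. Rag1 and Rag2 adjoin each other, and on either side Iftap, whose gene overlaps the Rag2 region, was called lower at -2.89 ± 0.10 in the control line and -2.45 ± 0.10 in the Tet2 shRNA line, while Traf6 fell by 0.62 ± 0.15 and 0.70 ± 0.15. Prkdc lies between Mcm4, a subunit of the replicative helicase, which fell by 3.75 ± 0.07 and 4.32 ± 0.07, and Mzt2, which rose by 1.21 ± 0.09 and 1.35 ± 0.09. Dntt adjoins Blnk, an adaptor of the B cell receptor pathway, which fell by 1.40 ± 0.07 and 0.78 ± 0.07.

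Xrcc4 and Tmem167 are on opposite strands, and their promoter windows overlap by 158 bases. Tmem167 rose by 1.23 ± 0.06 in the control line and 0.71 ± 0.06 in the Tet2 shRNA line, the same direction as Xrcc4. Lig4 and Abhd13 have windows on opposite strands that overlap by 136 bases. Abhd13 rose by 0.44 ± 0.12 in the control line (adjusted p = 0.0219) and changed by -0.18 ± 0.12 in the Tet2 shRNA line (adjusted p = 0.240). The gene beside Dclre1c, Meig1, was not well above background in the control line at either time. At 24 h it was at least 3.37-fold above its 0 h signal in the Tet2 shRNA line, and at least 1.88-fold above the control line. Suv39h2, whose gene overlaps the Dclre1c region, rose by 0.50 ± 0.15 and 0.52 ± 0.15.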
